A study of Homo sapiens with 24 samples.

Results

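H19, its antisense transcript HOTS and 8 other imprinted genes were followed in K562 cells in which GATA1 or one of its putative enhancers was repressed. The 10 genes were taken by symbol from a table of 21925 gene entries: H19, HOTS, IGF2, CDKN1C, KCNQ1OT1, PEG10, SGCE, MEST, MEG3 and DLK1. H19 was chosen by its measured level in these libraries: it had been seen to rise most with the sgRNA GATA1TSS-Guide2. Its values in comparisons with GATA1TSS libraries, and those of HOTS, which shares exon bases with it, are therefore given as a description without a test. Of the 10 genes, 6 passed the filter on low counts (H19, HOTS, CDKN1C, KCNQ1OT1, DLK1 and MEST), and IGF2, PEG10, SGCE and MEG3 did not.

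K562 is a human leukaemia line of erythroid character. All cells carried a catalytically inactive Cas9 joined to the KRAB repressor under a doxycycline-inducible promoter, were transduced with a single guide RNA (sgRNA), and were induced with doxycycline for 24 hours, controls included. There were 3 libraries of polyadenylated RNA for each of 8 sgRNAs: GATA1TSS-Guide2 and GATA1TSS-Guide1, against the start site of GATA1; eHDAC6-Guide2 and eHDAC6-Guide1, against a putative enhancer; and NC-Guide1 to NC-Guide4, with no target. The labels do not say how the replicates of an sgRNA were raised, so the p-values measure the spread between these libraries only.

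An imprinted gene is transcribed mainly from the copy inherited from a single parent, and the parental copies differ in DNA methylation at an imprinting control region. In the 11p15 domain, H19 is a maternally expressed long noncoding RNA, and IGF2, a growth factor, is expressed from the paternal copy. CTCF binding to the unmethylated control region between them keeps the shared enhancers on the H19 side. Both genes are abundant in fetal tissues, and H19 is mostly silenced after birth. The counts analysed here hold the total of both copies, so nothing in them bears on which parental copy was read.

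H19 is also the host of a microRNA. The MIR675 hairpin lies wholly inside an exon of H19, where the gene models share 73 of its 73 bases. It is shown because its reads are H19 reads. In the RefSeq annotation of GRCh38.p14 it lies at chr11:1996759-1996831 on the minus strand, and the hairpin below has its mature arms in capitals. In the lines for the arms, capitals mark the seed, bases 2 to 8.
MIR675 hairpin: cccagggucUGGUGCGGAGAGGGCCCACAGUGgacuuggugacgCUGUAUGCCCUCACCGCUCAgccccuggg
hsa-miR-675-5p: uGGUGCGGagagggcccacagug
hsa-miR-675-3p: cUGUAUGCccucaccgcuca
Of 2370 mature microRNA names in that table, 1 other has the seed of the 5p arm and 0 have that of the 3p arm. Reads of polyadenylated RNA over the hairpin come from the host transcript and do not measure the mature microRNAs.

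Total counts per library ran from 4290343, in GATA1TSS-Guide2 replicate 2, to 23205811. Levels are given in CPM, the count scaled to a common library size. GATA1, the targeted gene, averaged 53.1 ± 9.66 CPM with GATA1TSS-Guide2 and 117 ± 18.02 CPM with GATA1TSS-Guide1 (SD, n = 3 each), 253 ± 8.71 CPM with eHDAC6 (SD, n = 6) and 363 ± 28.9 CPM with NC (SD, n = 12). The control libraries split into 4 (replicates 2 and 3 of NC-Guide3 and NC-Guide4) and 8, a split seen in expression and not given by the labels. It shows in GRB10, which lay between 133.7 and 154 CPM in the 4 and between 224.6 and 272 CPM in the 8. Calls named below that were lost against the 4 are said to have been. The embryonic and fetal globin genes analysed as erythroid markers each averaged above 1 CPM over the 24 libraries. With GATA1TSS-Guide2, where H19 was highest, HBE1, HBG1, HBG2 and HBZ fell by 0.82, 0.68, 0.69 and 0.83 on the log2 scale (edgeR adjusted p between 8.78e-06 and 0.00670), and against the 4 the differences were -0.35, -0.23, -0.23 and -0.05, that of HBZ not called. With eHDAC6 they also fell (HBE1 by 0.58, edgeR adjusted p = 2.94e-05), and none was called against the 4 (HBE1 -0.12, edgeR adjusted p = 0.449). With GATA1TSS-Guide1 the differences were -0.33, -0.31, -0.32 and -0.49, none called (edgeR adjusted p between 0.0580 and 0.146). Against the 4 they were 0.14, 0.15, 0.14 and 0.30, none called. HBG1 and HBG2 are near-identical copies whose reads may be split between them. Of 12 markers of fibroblasts, epithelia, lymphocytes and myeloid cells, 6 averaged under 1 CPM.

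In the deposited gene models (hg19) H19 lies at chr11:2016406-2022696 on the minus strand. H19 was highest in the 3 GATA1TSS-Guide2 libraries, at 192, 240 and 196 CPM. With GATA1TSS-Guide1 it was 30.3, 108 and 42.5 CPM. With eHDAC6-Guide2 it was 28.1, 33.1 and 44.6 CPM, and with eHDAC6-Guide1 30.7, 60.9 and 26.2 CPM. In the 12 NC libraries it ran from 12.3 to 63.7 CPM with a median of 27.6. All 3 GATA1TSS-Guide2 libraries stood above every other library of the series, and of the GATA1TSS-Guide1 libraries only replicate 2 stood above every NC library.

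**Figure D1:**
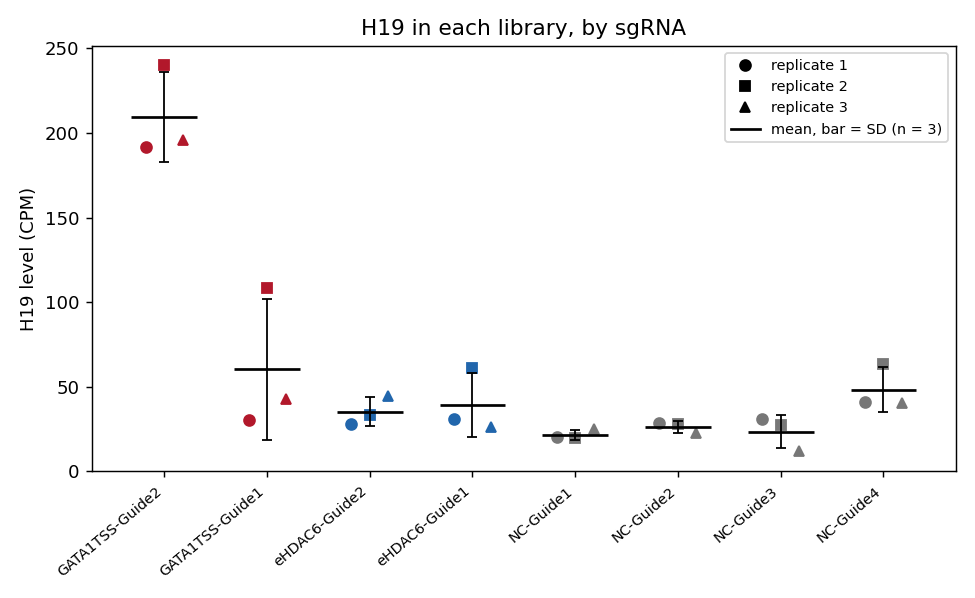
H19 level (CPM, y axis) in each of the 24 libraries, by sgRNA (x axis); the marker gives the replicate, the line the mean and the bar the SD of 3 libraries. The GATA1TSS-Guide2 libraries lie at 192, 240 and 196 CPM, above all others, and replicate 2 of GATA1TSS-Guide1, at 108 CPM, stands apart from its group.

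The mean H19 level with GATA1TSS-Guide2 was 209 ± 26.7 CPM (SD, n = 3), against 29.9 ± 13.4 CPM with NC (SD, n = 12), a ratio of 7.01. On the log2 scale the fitted difference was 2.88 with a standard error of 0.23. It was 2.69 against the 4 control libraries and 2.84 against the 8. For GATA1TSS-Guide1 the mean was 60.3 ± 41.8 CPM (SD, n = 3) and the fitted log2 difference from NC was 1.09 with a standard error of 0.25. That value rests on replicate 2: without it the difference was 0.36. GATA1TSS-Guide2 minus GATA1TSS-Guide1 was 1.79 on the log2 scale, and 2.52 without GATA1TSS-Guide1 replicate 2.

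H19 and GATA1 levels can be set side by side within an sgRNA, as a description. The library with the most H19 was the library with the least GATA1 for 3 of the 4 targeting sgRNAs and for 5 of all 8. For GATA1TSS-Guide1 it was replicate 2, with 96.1 CPM of GATA1, against 130 and 123 CPM in the replicates beside it. For GATA1TSS-Guide2 it was replicate 2, the shallowest library of the series, in which 1056 counts lie behind the H19 level. For eHDAC6-Guide2 it was replicate 3, which had the highest GATA1 level of its group at 267 CPM. With 3 libraries per sgRNA such matches also arise often between unrelated genes, so these counts alone show no relation. The Pearson r of log2 CPM between H19 and GATA1 was -0.08 over the 12 NC libraries. Over the 12 libraries with a targeting sgRNA it was -0.89, which holds the difference between sgRNAs.

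Between eHDAC6 and NC the H19 difference was 0.39 on the log2 scale with a standard error of 0.22 and an interval at 95% of -0.06 to 0.83. It was not called (adjusted p = 0.176, edgeR quasi-likelihood test over 13147 genes). The mean was 37.3 ± 13.3 CPM with eHDAC6 (SD, n = 6), 4 of 6 libraries stood above the NC mean, and none stood above the highest NC library. The control libraries are those of the comparison that put H19 on the list. Without eHDAC6-Guide1 replicate 2 the difference was 0.16. Of 13147 genes, 31.1% were called between eHDAC6 and NC. Between the eHDAC6 sgRNAs, Guide2 minus Guide1 was -0.14 (interval -0.86 to 0.58, edgeR adjusted p = 0.9997), a comparison in which 0.0152% of genes were called.

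Among the 4 NC sgRNAs the H19 means were 21.6, 26.2, 23.5 and 48.3 CPM for NC-Guide1 to NC-Guide4, and a difference was not called (edgeR adjusted p = 0.0597), where 12.3% of genes were called. Leaving out NC-Guide4 replicate 2, at 63.7 CPM, gave 0.288, and leaving out NC-Guide3 replicate 1 gave 0.0254. The difference was called without the filter on low counts (edgeR adjusted p = 0.00371) and with the replicate number as a block (edgeR adjusted p = 0.0339). In order of mean level, GATA1TSS-Guide2 came first and did not overlap the next group, GATA1TSS-Guide1. From there down, through NC-Guide4, eHDAC6-Guide1, eHDAC6-Guide2, NC-Guide2, NC-Guide3 and NC-Guide1, each sgRNA overlapped its neighbour. NC-Guide4 stood above each eHDAC6 sgRNA in the mean.

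HOTS (chr11:2013638-2017524, hg19, plus strand) is transcribed from the strand opposite to H19 and shares 863 of the 2597 exon bases of H19. Its level was 101, 131 and 109 CPM with GATA1TSS-Guide2, 17.6, 64.0 and 22.9 CPM with GATA1TSS-Guide1, and 8.44 to 34.7 CPM with a median of 14.3 in the NC libraries. Its mean with GATA1TSS-Guide2 was 6.92 times the NC mean, beside 7.01 for H19. HOTS counts were 55.0% of H19 counts in the median library, and between 45.7% and 68.7% over the 24. The library protocol marks strand, but no source used here states whether the counting did, so the reads of the 2 entries cannot be told apart. The MIR675 entry, which holds only hairpin bases, had 1.09% to 4.16% of the H19 count, and its mean with GATA1TSS-Guide2 was 6.98 times the NC mean.

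**Figure D2:**
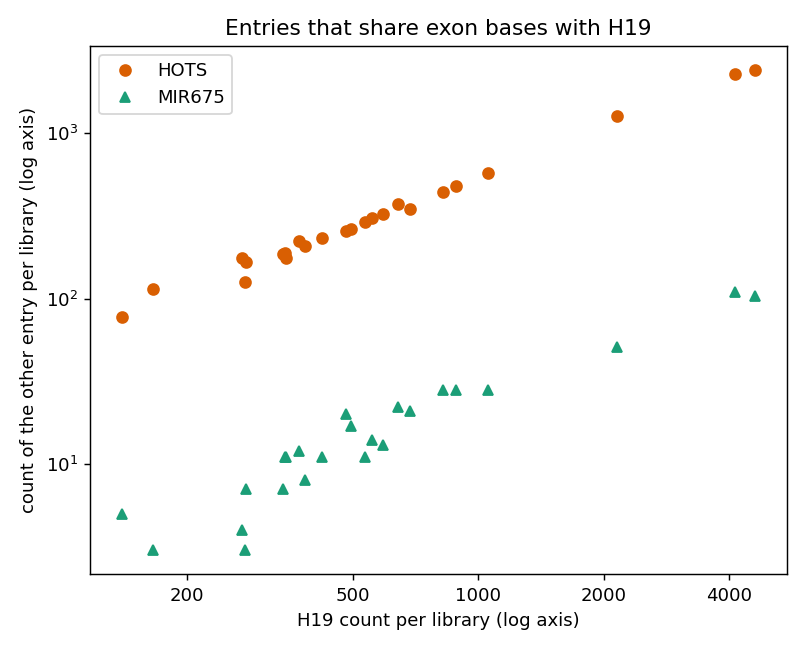
Counts of HOTS (circles) and MIR675 (triangles) on the y axis against the H19 count on the x axis, 1 point per library, log axes. HOTS stays between 45.7% and 68.7% of H19 in every library, whichever the sgRNA.

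IGF2 (chr11:2150342-2170833, hg19, minus strand), the partner of H19 in the domain, was near the floor of detection. It had 13 counts in all 6 GATA1TSS libraries, 11 in the 6 eHDAC6 libraries and 22 in the 12 NC libraries. As CPM over the summed libraries these are 0.118 (95% exact Poisson interval 0.0630 to 0.202), 0.141 (0.0702 to 0.252) and 0.142 (0.0890 to 0.215), with intervals that cover counting error only. The 3 intervals overlap, so no IGF2 difference was detectable at this depth in the libraries where H19 was highest or elsewhere. IGF2 also shares 4886 exon bases with the INS-IGF2 entry.

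CDKN1C (chr11:2904448-2906995, hg19, minus strand) encodes p57, an inhibitor of cyclin-dependent kinases, and is maternally expressed from the neighbouring KCNQ1 domain of 11p15. It was 56.6, 53.0 and 63.6 CPM with GATA1TSS-Guide2 and 49.0, 48.2 and 46.9 CPM with GATA1TSS-Guide1, and in the NC libraries it ran from 28.4 to 55.5 CPM with a median of 47.0. Of the GATA1TSS-Guide2 libraries, 2 stood above every NC library. CDKN1C rose with GATA1TSS-Guide2 by 0.34 on the log2 scale (standard error 0.09, edgeR adjusted p = 0.00751). It was not called with GATA1TSS-Guide1 (0.07, standard error 0.09, edgeR adjusted p = 0.684), and GATA1TSS-Guide2 minus GATA1TSS-Guide1, at 0.27, was not called either (edgeR adjusted p = 0.216). Against the 4 control libraries alone the GATA1TSS-Guide2 difference was 0.20 and not called (edgeR adjusted p = 0.136), nor was it without GATA1TSS-Guide2 replicate 3 (edgeR adjusted p = 0.108).

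With eHDAC6 CDKN1C also rose, by 0.39 (standard error 0.07, edgeR adjusted p = 2.74e-04), to a mean of 60.0 ± 5.51 CPM (SD, n = 6), against 46.2 ± 8.20 CPM with NC (SD, n = 12). All 6 eHDAC6 libraries were above the NC mean, and 5 of 6 above every NC library. Against the 4 control libraries the difference was 0.24 (edgeR adjusted p = 0.130). The NC sgRNAs differed among themselves in CDKN1C (edgeR adjusted p = 0.0188), with NC-Guide2 lowest at 35.6 ± 6.27 CPM (SD, n = 3). That call was lost without NC-Guide2 replicate 1 (edgeR adjusted p = 0.127) or NC-Guide1 replicate 2 (edgeR adjusted p = 0.0507).

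KCNQ1OT1 (chr11:2629558-2721228, hg19, minus strand) is the paternally expressed antisense RNA whose transcription silences the KCNQ1 domain, CDKN1C included, on the same chromosome. It was 35.0, 56.8 and 43.8 CPM with GATA1TSS-Guide2, 60.5, 40.7 and 56.9 CPM with GATA1TSS-Guide1, and from 33.7 to 70.3 CPM in the NC libraries. The GATA1TSS and NC ranges overlapped for both sgRNAs. No KCNQ1OT1 difference was called: GATA1TSS-Guide2 minus NC was -0.11 on the log2 scale (interval -0.42 to 0.19, edgeR adjusted p = 0.634), and eHDAC6 minus NC was -0.07 (interval -0.30 to 0.16, edgeR adjusted p = 0.691). Its exons share 121 bases with KCNQ1 on the other strand, yet the KCNQ1 entry had near-equal values. KCNQ1 averaged 48.3 CPM over the 24 libraries, beside 47.7 CPM for KCNQ1OT1. The KCNQ1 difference from NC was -0.12 with GATA1TSS-Guide2 and -0.07 with eHDAC6. With GATA1TSS-Guide1 it was 0.15, and that of KCNQ1OT1 was also 0.15. The 2 entries are therefore not taken as separate measures. Whether they hold the same reads was not tested.

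DLK1 (chr14:101193202-101201467, hg19, plus strand), a paternally expressed transmembrane protein related to the Notch ligands, was the most abundant of the 10 per length: over the 24 libraries it averaged 149 CPM per kilobase of exon, against 26.6 for CDKN1C, 22.3 for H19, 0.521 for KCNQ1OT1 and 0.709 for MEST. With GATA1TSS-Guide2 it was 302, 224 and 298 CPM, with GATA1TSS-Guide1 286, 221 and 227 CPM, and in NC libraries from 150 to 368 CPM with a median of 212. No GATA1TSS library stood above every NC library. DLK1 rose with GATA1TSS-Guide2 by 0.33 (standard error 0.12, edgeR adjusted p = 0.0434), with 2 of 3 libraries above the NC mean. This call was lost without GATA1TSS-Guide2 replicate 1 or 3 (edgeR adjusted p = 0.251 and 0.211). It was also lost without NC-Guide1 replicate 2 or 3, NC-Guide2 replicate 1, NC-Guide3 replicate 1, or NC-Guide4 replicate 2 or 3 (edgeR adjusted p between 0.0511 and 0.0559), with the replicate number as a block (edgeR adjusted p = 0.0541) and in the fit to the compared groups (edgeR adjusted p = 0.0518). GATA1TSS minus NC, with both sgRNAs, was 0.24 and not called (edgeR adjusted p = 0.0532). It was called against the 4 (0.37, edgeR adjusted p = 0.0242) and against the 8 (0.32, edgeR adjusted p = 0.0214), and with RLE scaling, without the filter and with DESeq2 (adjusted p between 0.0183 and 0.0498). The 4 hold no library of NC-Guide1, the NC sgRNA with the highest DLK1 mean. The split was itself seen in the expression of these libraries, so the calls against the 4 and the 8 are no separate support. The difference for eHDAC6 minus NC was 0.12 (edgeR adjusted p = 0.362). The NC sgRNAs differed among themselves in DLK1: their means were 323, 191, 219 and 171 CPM for NC-Guide1 to NC-Guide4 (edgeR adjusted p = 0.00488).

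MEG3 (chr14:101292445-101327360, hg19, plus strand) is the maternally expressed noncoding RNA of the DLK1 domain on chromosome 14. It had 16 counts in the GATA1TSS libraries, 23 in the eHDAC6 libraries and 35 in the NC libraries, which as CPM over the summed libraries is 0.146 (95% exact Poisson interval 0.0833 to 0.237), 0.294 (0.186 to 0.441) and 0.226 (0.157 to 0.314). Per length MEG3 averaged 0.0217 CPM per kilobase of exon over the 24 libraries, against the 149 of DLK1, so the neighbours stood far apart in level in the same cells.

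PEG10 (chr7:94285637-94299006, hg19, plus strand) and SGCE (chr7:94214536-94285521, hg19, minus strand) are paternally expressed neighbours, PEG10 derived from a retrotransposon and SGCE encoding a sarcoglycan. PEG10 had 6, 0 and 10 counts in the GATA1TSS, eHDAC6 and NC libraries, and the 0 of eHDAC6 allows up to 0.0384 CPM by a limit of 3 counts, or 0.0472 CPM as the upper bound of the 95% exact Poisson interval. SGCE had 5, 4 and 8 counts. Neither gives a difference that could be detected at this depth.

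MEST (chr7:130126016-130146138, hg19, plus strand), a paternally expressed gene that encodes a hydrolase-like protein, was low. It was 2.04, 3.64 and 1.61 CPM with GATA1TSS-Guide2, 1.51, 0.805 and 1.91 CPM with GATA1TSS-Guide1, and 1.11 to 7.43 CPM in NC, with NC-Guide2 replicate 1 the highest. It was not called in any comparison (edgeR adjusted p = 0.906 for GATA1TSS-Guide2 minus NC and 0.196 for GATA1TSS-Guide1 minus NC), and its low counts leave wide intervals, from -1.39 to 0.02 for GATA1TSS-Guide1 minus NC. MEST shares 59 exon bases with COPG2 on the other strand.

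**Figure D3:**
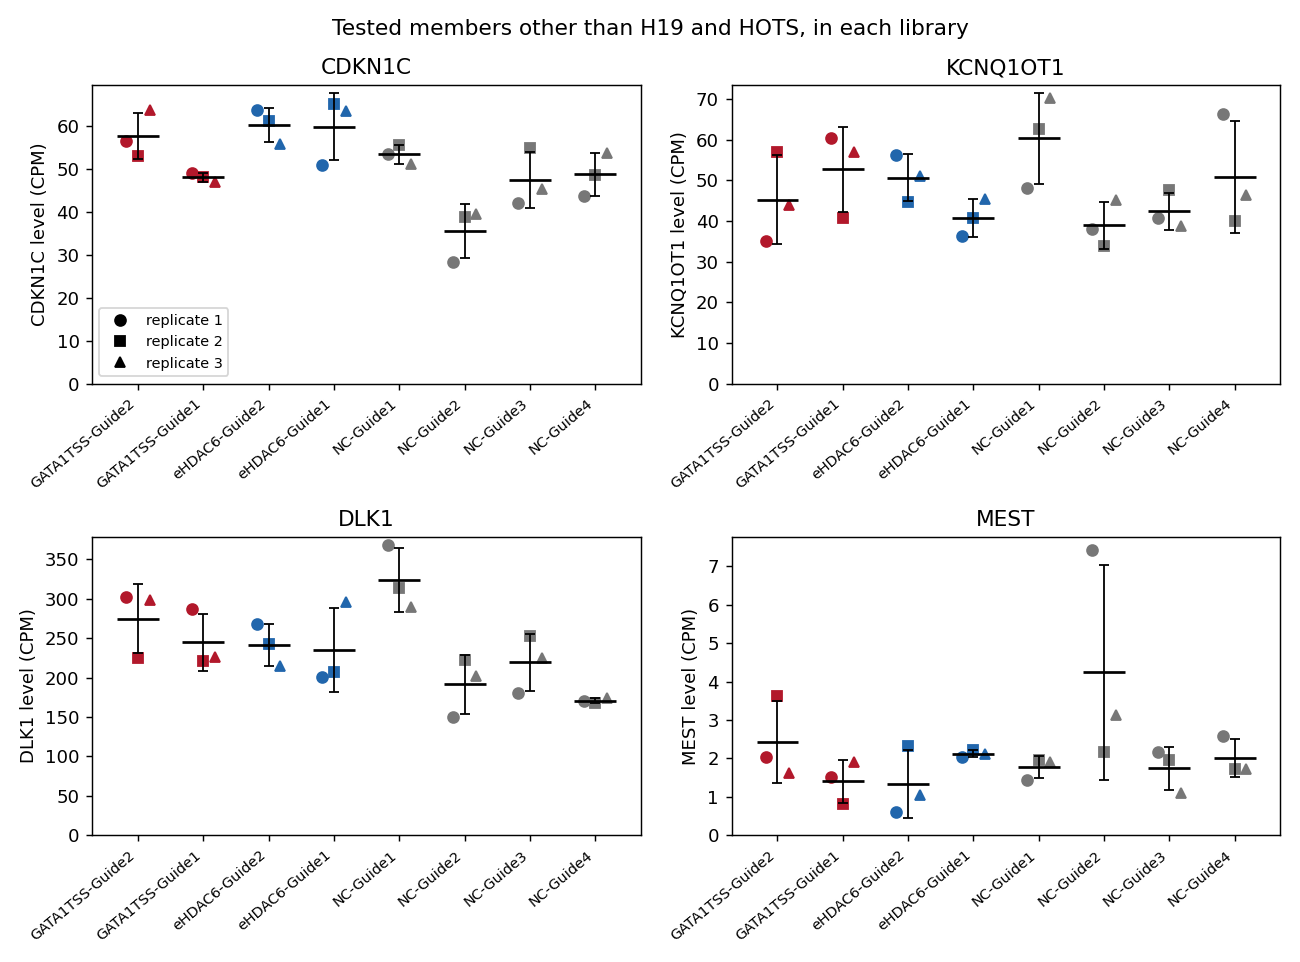
CDKN1C, KCNQ1OT1, DLK1 and MEST in CPM (y axes, each starting at 0) in each library by sgRNA (x axes), with the replicate shown by marker, the mean by a line and the SD of 3 libraries by a bar. CDKN1C lies at 51.0 to 65.2 CPM with eHDAC6, and DLK1 spans 150 to 368 CPM among the NC libraries.

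Of the 4 listed genes that could be tested in a GATA1TSS contrast, 2 were called with GATA1TSS-Guide2 (CDKN1C and DLK1, both higher), where 24.8% of all genes were called. None was called with GATA1TSS-Guide1, where 12% of all genes were, and 1 was called with eHDAC6 (CDKN1C), where 31.1% were. With both GATA1TSS sgRNAs in 1 comparison, CDKN1C alone was called (0.21, edgeR adjusted p = 0.0350), beside 27.2% of all genes. That call was lost against the 4 (0.07, edgeR adjusted p = 0.683). It was also lost without any of the GATA1TSS-Guide1 replicates, GATA1TSS-Guide2 replicate 1 or 3, NC-Guide3 replicate 1 or NC-Guide4 replicate 1 (edgeR adjusted p between 0.0525 and 0.137). Between the GATA1TSS sgRNAs 0 of 4 were called, beside 3.48% of all genes. Counts over 4 genes do not set these genes apart from that background.

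Of 37 other gene entries with a start within 500 kb of the start that 2 of the 3 H19 models share (chr11:2019105, hg19), IGF2 among them, 13 were tested. With GATA1TSS-Guide2, 1 was higher and 2 lower, beside 12.4% of all genes in each direction. The median log2 difference was -0.12, beside 0.00 over all genes tested. That median is the value of KCNQ1, whose values were near those of KCNQ1OT1. C11orf21 rose with GATA1TSS-Guide2 (0.65, standard error 0.14, edgeR adjusted p = 7.98e-04) and with eHDAC6 (0.62, standard error 0.11, edgeR adjusted p = 1.37e-04). TSPAN32, which encodes a tetraspanin, fell with GATA1TSS-Guide2 by 0.44 (edgeR adjusted p = 0.0215), and DUSP8, a phosphatase of MAP kinases, fell by 0.74 (edgeR adjusted p = 0.0269). MRPL23-AS1, whose start lies 8.0 kb from that of H19, fell with GATA1TSS-Guide1 by 0.52 (edgeR adjusted p = 0.0399), and CTSD, which encodes cathepsin D, rose with eHDAC6 by 0.24 (edgeR adjusted p = 0.0128). None of these calls held against the 4 control libraries alone (C11orf21 with GATA1TSS-Guide2 had 0.37, edgeR adjusted p = 0.0610).

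Of 75 other symbols of imprinted genes, older spellings included, 56 were in the table and 24 were tested. For some of them, among them WT1, RB1, ERAP2, NAA60 and ZNF331, imprinting is limited to some tissues or transcripts or is disputed. GATA1TSS-Guide2 minus NC had 4 higher and 1 lower of 24 (12.4% of all genes were called in each direction), with a median log2 difference of 0.18. GATA1TSS-Guide1 minus NC had 5 higher and 2 lower, beside 6.21% and 5.8% of all genes, with a median of 0.03, and 0 of these 7 calls held against the 4 control libraries. For eHDAC6 minus NC there were 5 higher and 4 lower, beside 15.8% and 15.3% of all genes, with a median of 0.05, and 1 of these 9 calls (GRB10) held against the 4. With GATA1TSS-Guide2, 4 of the 5 did.

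**Figure D4:**
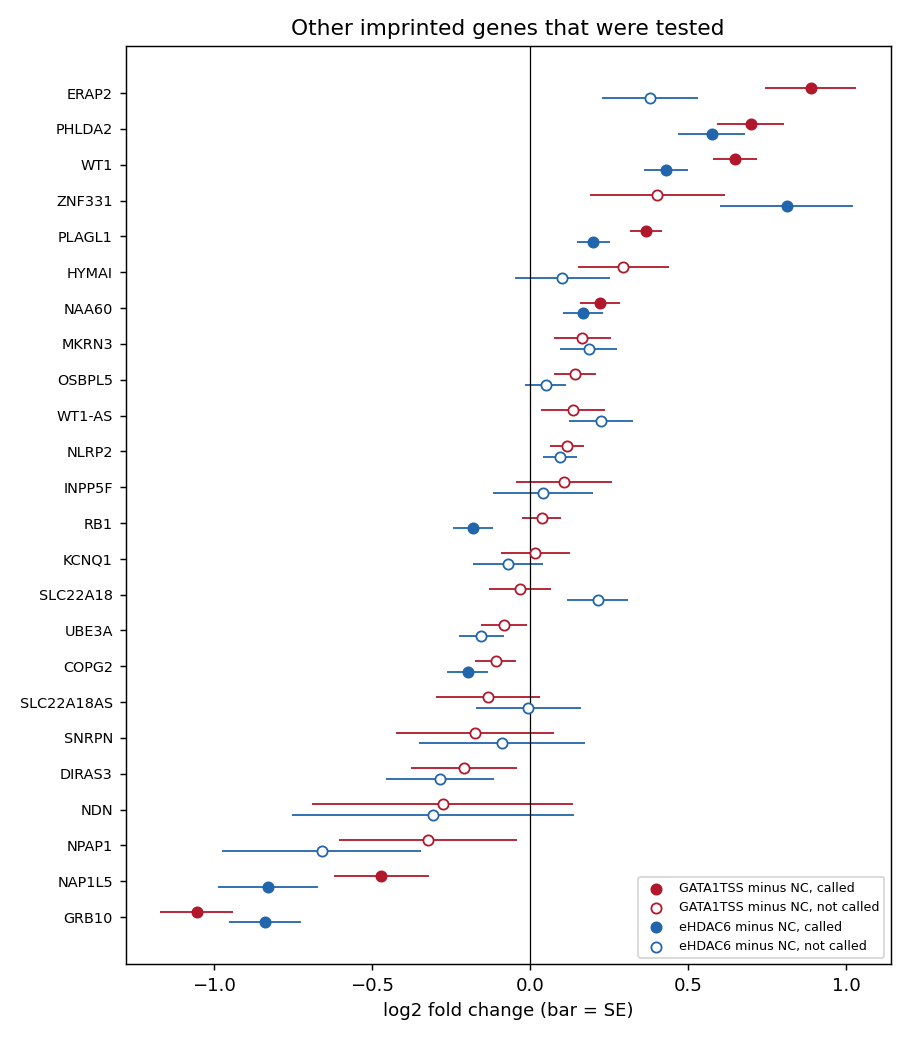
Log2 fold change (x axis; bar, standard error) of the 24 other imprinted genes tested, GATA1TSS minus NC in red above eHDAC6 minus NC in blue for each gene; filled points are called at an adjusted p under 0.05. GRB10 lies furthest left for both elements (-1.06 with GATA1TSS and -0.84 with eHDAC6), and PLAGL1 and WT1 lie right of 0 for both.

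GRB10, an adaptor that dampens insulin and IGF receptor signalling, fell the most. It averaged 89.0 ± 4.43 CPM with GATA1TSS-Guide2 and 116 ± 13.1 CPM with GATA1TSS-Guide1 (SD, n = 3 each), 118 ± 9.69 CPM with eHDAC6 (SD, n = 6) and 214 ± 53.5 CPM with NC (SD, n = 12). All 12 libraries with a targeting sgRNA stood below every NC library. On the log2 scale the difference from NC was -1.25 with GATA1TSS-Guide2 (edgeR adjusted p = 1.11e-06), -0.87 with GATA1TSS-Guide1 (edgeR adjusted p = 6.33e-04) and -0.84 with eHDAC6 (edgeR adjusted p = 9.21e-06). Against the 4 control libraries these were smaller, -0.69 (edgeR adjusted p = 8.73e-07), -0.30 (edgeR adjusted p = 0.0686) and -0.28 (edgeR adjusted p = 0.0191).

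PLAGL1, a zinc finger transcription factor that is paternally expressed, rose. It averaged 124 ± 7.34 CPM with GATA1TSS-Guide2 and 105 ± 7.82 CPM with GATA1TSS-Guide1 (SD, n = 3 each), and 88.3 ± 4.82 CPM with NC (SD, n = 12). Its log2 difference from NC was 0.49 with GATA1TSS-Guide2 (edgeR adjusted p = 2.36e-06), 0.24 with GATA1TSS-Guide1 (edgeR adjusted p = 0.0146) and 0.20 with eHDAC6 (edgeR adjusted p = 0.00421). Its control libraries did not split: it averaged 88.5 CPM in the 4 and 88.3 CPM in the 8. With GATA1TSS-Guide2 the difference against the 4 was 0.49 (edgeR adjusted p = 5.66e-05), while with GATA1TSS-Guide1 and eHDAC6 it was 0.25 and 0.20 and not called (edgeR adjusted p = 0.199 and 0.125). The GATA1TSS-Guide1 call was also lost without its replicate 1 or 3. PLAGL1 shares 327 exon bases with HYMAI on the same strand.

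WT1, a zinc finger transcription factor of kidney and gonad development, rose to 67.6 ± 7.62 CPM with GATA1TSS-Guide2 (SD, n = 3), against 37.4 ± 4.09 CPM with NC (SD, n = 12), a log2 difference of 0.84 (edgeR adjusted p = 8.62e-08), and 0.69 against the 4. WT1 also rose with GATA1TSS-Guide1 and eHDAC6, by 0.45 and 0.43 (edgeR adjusted p = 0.00160 and 7.22e-05). Neither was called against the 4 (0.31 and 0.29, edgeR adjusted p = 0.171 and 0.0671). ERAP2, a peptide-trimming aminopeptidase, rose by 1.14 with GATA1TSS-Guide2 (edgeR adjusted p = 2.86e-05), and by 1.02 against the 4. ERAP2 also rose with GATA1TSS-Guide1, by 0.64 (edgeR adjusted p = 0.0209). That call was lost against the 4 (0.52, edgeR adjusted p = 0.394) and without GATA1TSS-Guide1 replicate 1 or 3. PHLDA2, a growth-restraining gene of the KCNQ1 domain, was higher with GATA1TSS-Guide2 by 0.53 (edgeR adjusted p = 0.00457), but by 0.07 (edgeR adjusted p = 0.766) against the 4. PHLDA2 also rose with GATA1TSS-Guide1 and eHDAC6, by 0.86 and 0.57 (edgeR adjusted p = 2.77e-04 and 2.71e-04). Neither was called against the 4 (0.39 and 0.10, edgeR adjusted p = 0.277 and 0.736). PHLDA2 averaged 14.1 CPM in the 4 control libraries and 8.67 CPM in the 8. With eHDAC6, ZNF331 rose by 0.81 (edgeR adjusted p = 0.00475) and NAP1L5 fell by 0.83 (edgeR adjusted p = 3.71e-04) against all NC libraries. Against the 4 their differences were 0.08 and -0.31, and neither was called (edgeR adjusted p = 0.912 and 0.399). Of these, none was called between the GATA1TSS sgRNAs.

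Of 20 listed factors that maintain or read imprints, 17 were in the table and 13 were tested. DNMT3A, a de novo DNA methyltransferase, fell with GATA1TSS-Guide2 by 0.66 on the log2 scale (edgeR adjusted p = 5.36e-05), to 23.7 ± 1.77 CPM (SD, n = 3), against 37.0 ± 4.80 CPM with NC (SD, n = 12), and it was lower by 0.47 against the 4 (edgeR adjusted p = 0.00227). DNMT3A also fell with GATA1TSS-Guide1 and eHDAC6, by 0.34 each (edgeR adjusted p = 0.0292 and 0.00198). Neither was called against the 4 (-0.14 and -0.15, edgeR adjusted p = 0.761 and 0.419). UHRF1, which recruits DNMT1 to newly copied DNA, rose by 0.44 with GATA1TSS-Guide2 (edgeR adjusted p = 3.84e-05), and by 0.34 against the 4 (edgeR adjusted p = 0.00266). UHRF1 also rose with GATA1TSS-Guide1, by 0.33 (edgeR adjusted p = 0.00352), a call lost against the 4 (0.23, edgeR adjusted p = 0.269). CTCF and DNMT1 moved less with both GATA1TSS sgRNAs: CTCF fell by 0.15 (edgeR adjusted p = 0.0101) and DNMT1 rose by 0.13 (edgeR adjusted p = 0.0255), and neither was called against the 4 control libraries (edgeR adjusted p = 0.0903 and 0.633). ZNF445, a zinc finger protein of imprint maintenance, rose by 0.21 with GATA1TSS-Guide2 (edgeR adjusted p = 0.0215), and TET3, which oxidises methylated cytosine, fell by 0.25 with eHDAC6 (edgeR adjusted p = 0.00237). Neither call held against the 4, where the ZNF445 difference was 0.22 and that of TET3 -0.15 (edgeR adjusted p = 0.0541 and 0.291). For GATA1TSS-Guide2 minus NC the list had 2 higher and 1 lower of 13, beside 12.4% of all genes in each direction, with a median of -0.02.

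Of 8 RNA-binding and chromatin partners of H19 and IGF2, 6 were tested and 0 were called with GATA1TSS-Guide2, beside 24.8% of all genes, or with GATA1TSS-Guide1, beside 12%. With eHDAC6, LIN28B fell by 0.20 (edgeR adjusted p = 0.0244) and EZH2 by 0.16 (edgeR adjusted p = 0.0445), neither of which held against the 4. Of 15 genes of IGF signalling 8 were tested. With GATA1TSS-Guide2, 0 were higher and 3 lower, beside 12.4% of all genes in each direction, while the median log2 difference was 0.38, and -0.10 against the 4. The 5 that were not called had positive differences: IGF1 0.49, IGFBP4 0.47, IGFBP7 0.43, IGFBP6 0.40 and IGFALS 0.37 (edgeR adjusted p between 0.0560 and 0.552). With GATA1TSS-Guide2, the receptors INSR and IGF1R fell by 0.71 (edgeR adjusted p = 0.00540) and 0.45 (edgeR adjusted p = 0.0447), as did the adaptor IRS2, by 0.39 (edgeR adjusted p = 0.00683). INSR also fell with eHDAC6, by 0.56 (edgeR adjusted p = 0.00332), a call lost against the 4 (-0.47, edgeR adjusted p = 0.0763). IGFBP4, which binds IGFs, rose with eHDAC6 by 0.90 (edgeR adjusted p = 3.62e-05), but by 0.26 (edgeR adjusted p = 0.155) against the 4. The IGF1R call was lost in 11 of 22 alternatives: against the 8 control libraries (edgeR adjusted p = 0.114), in the fit to the compared groups, and without GATA1TSS-Guide2 replicate 1 or 2, replicate 2 or 3 of NC-Guide1, NC-Guide2 or NC-Guide3, or NC-Guide4 replicate 3. IGF1R shares 1137 exon bases with IRAIN on the other strand.

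The genes whose log2 CPM followed H19 most closely over the 24 libraries, of 9972 ranked, were KRT8 (Pearson r 0.93), SLC20A1 (0.92), NPEPPS (0.91), DYNLL2 (0.90) and CDKN2C (0.90). These libraries share the sgRNA groups, so the correlation holds the difference between groups. Within the 12 NC libraries alone the r were 0.85, 0.62, 0.59, 0.75 and 0.81. These 12 libraries are among the 24 by which the genes were picked, so high r in them follows in part from that choice. Mean H19 also varied between the NC sgRNAs, so the NC values are not free of differences between groups. KRT8 is a keratin of simple epithelia, SLC20A1 a phosphate transporter, NPEPPS an aminopeptidase, DYNLL2 a dynein light chain and CDKN2C an inhibitor of cyclin-dependent kinases. KRT8 shares 135 exon bases with KRT18 on the other strand.

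KRT8 was 656, 660 and 727 CPM with GATA1TSS-Guide2 and 484, 711 and 511 CPM with GATA1TSS-Guide1. Replicate 2 of GATA1TSS-Guide1 was high in KRT8 as it was in H19. KRT8 was picked by its likeness to H19 over these same libraries, so this match follows from that choice. KRT8 stands in the list of fibroblast and epithelial markers, whose 7 genes summed to 839 to 1176 CPM with GATA1TSS, 733 to 854 CPM with eHDAC6 and 659 to 946 CPM with NC. Of these, COL1A2 averaged 0.0507 CPM, DCN 0.178 CPM and CDH1 0.314 CPM over all libraries, and EPCAM fell by 0.59 with GATA1TSS-Guide2 (edgeR adjusted p = 2.31e-06) while COL1A1 rose by 1.12 (edgeR adjusted p = 7.88e-04). The 5 lymphocyte and myeloid markers summed to 75.2 to 121 CPM with GATA1TSS, 80.8 to 95.5 CPM with eHDAC6 and 65.1 to 92.8 CPM with NC, with CD3E, MS4A1 and CD14 under 1 CPM in the mean. Among them LYZ rose with GATA1TSS-Guide2 by 0.35 (edgeR adjusted p = 0.00191) and CD3E by 2.29 (edgeR adjusted p = 0.00960). LYZ was also higher with GATA1TSS-Guide2 than with GATA1TSS-Guide1, by 0.48 (edgeR adjusted p = 0.00839). The part of these markers in the H19 levels was not tested. In bulk RNA, more H19 per cell and more cells that express it cannot be told apart.

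**Figure D5:**
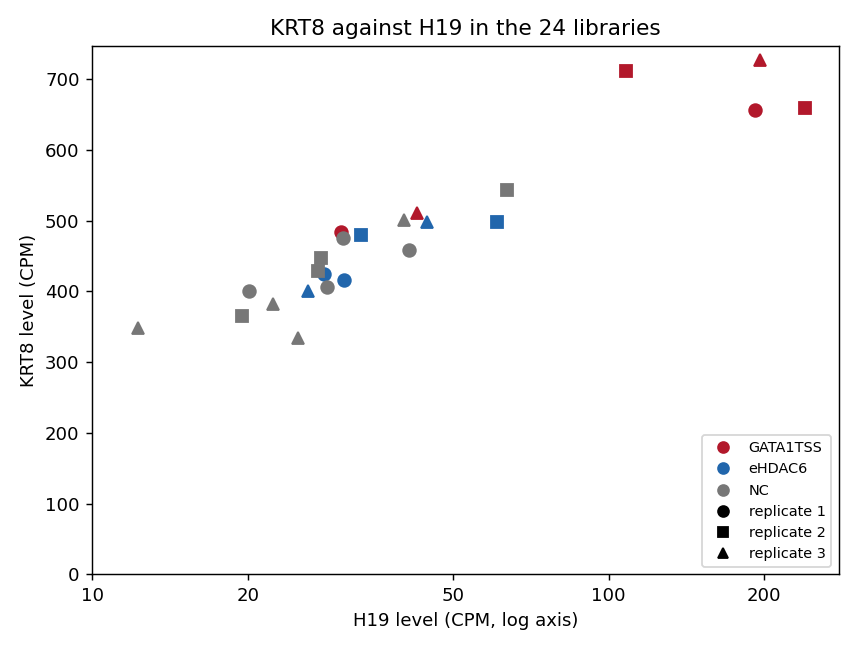
KRT8 level (CPM, y axis from 0) against H19 level (CPM, log x axis) in the 24 libraries, colour for the element and marker for the replicate. The 3 GATA1TSS-Guide2 libraries and GATA1TSS-Guide1 replicate 2 lie at the upper right, with KRT8 at 656 to 727 CPM. The NC libraries run along the same course at lower levels. KRT8 was picked as the gene closest to H19 over these libraries.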

How the data were processed

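Raw counts of whole reads per gene in 24 libraries were deposited by the authors with RefSeq gene models on hg19. The submitters' processing notes name TopHat2 2.0.8, Bowtie2 2.1.0, SAMtools 0.1.19 and Picard, with no order; the labels give 10000 lysed cells per library. No source used here states the counting tool or its use of strand.

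Levels are CPM after TMM scaling (factors 0.951 to 1.03). Comparisons used the quasi-likelihood F test of edgeR 4.0.16 (R 4.3.3), with 1 coefficient per sgRNA over all 24 libraries. Its filter (minimum count 10, minimum total 15, proportion 0.7) left 13147 of 21925 entries. P-values were adjusted over all of them by Benjamini-Hochberg, and those under 0.05 after adjustment are the calls. Correlations used log2 CPM with a prior count of 2. The script was tested on simulated data. The alternatives were RLE scaling, no filter, DESeq2 1.42.0, a replicate block, fits to the compared groups only, control subsets and each library left out.

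Members, lists and tests were chosen with earlier results of these data known. Beyond the 10 genes, the text names called genes averaging at least 1 CPM (up to 4 per list by size of change, up to 6 near H19) and the 5 closest to H19 among those averaging at least 5 CPM. MIR675 was left out of the list counts because its reads are those of H19. Some marker genes are not reported here.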

Additional observations from a re-analysis of the deposited data

How the results depend on the processing

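Numbers of called genes changed with the control libraries and with the libraries fitted. Against the 4 control libraries, 47 genes were called with GATA1TSS-Guide1 (1579 against all 12), 195 with eHDAC6 (4088) and 1332 with GATA1TSS (3580). Against the other 8, 3309 were called with GATA1TSS-Guide1. Fits to the compared groups only gave 938 with GATA1TSS-Guide1, 72 between the eHDAC6 sgRNAs (2 in the fit of all libraries) and 14 among the NC sgRNAs (1618), and DESeq2 gave 2744 among the NC sgRNAs. The cause was not tested. Of CDKN1C, KCNQ1OT1, DLK1 and MEST, 1 in place of 2 was called with GATA1TSS-Guide2 under the replicate block, in the fit to the compared groups and against the 4; 0 in place of 1 with eHDAC6 against the 4; 2 in place of 1 with GATA1TSS under RLE scaling, without the filter, with DESeq2 and against the 8; and among the NC sgRNAs 4 without the filter and 1 in the fit to the compared groups, in place of 2. Leaving out each library in turn gave 0 to 2 of these genes called with GATA1TSS-Guide2, 0 to 2 with GATA1TSS and 1 to 4 among the NC sgRNAs. It gave 533 to 2167 calls with GATA1TSS-Guide1, 181 to 376 between the GATA1TSS sgRNAs (457 with all), 0 to 1 between the eHDAC6 sgRNAs and 269 to 3264 among the NC sgRNAs.

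Over all genes tested, replicate numbers showed little pairing. Deviations from the sgRNA means correlated by 0.0114 on average between libraries of the same number (84 pairs, 8 of them over 0.1). Between libraries of different number the average was -0.00552 (168 pairs, 18 of them over 0.1). Of 24 libraries, 9 were closest to one of their own number. This average does not settle pairing for single genes. For H19, GATA1TSS-Guide2 minus NC had a standard error of 0.20 with the replicate block and 0.23 without it. With the replicate block DLK1 with GATA1TSS-Guide2 was 0.33 (adjusted p = 0.0541), 507 genes were called between the GATA1TSS sgRNAs, and the H19 difference among the NC sgRNAs passed the threshold (adjusted p = 0.0339). No member result changed its direction past the threshold under any alternative run. Depth limits IGF2, PEG10, SGCE and MEG3, which had 0 to 35 counts per group.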
